A study of Mus musculus with 12 samples.

Results

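The transcripts described here are those of 9 genes that mark myeloid leukocytes, namely Lyz2, S100a8, S100a9, Csf1r, Il1b, Itgam, Cd14, Tyrobp and Fcer1g. They were chosen by symbol, as known leukocyte markers, from the 46517 genes in the count tables, and all 9 were found. RNA had been sequenced from colonic intestinal epithelial cells of C57BL/6 mice aged 7 to 9 weeks. The 4 groups of 3 samples were untreated wild-type (WT) mice, WT mice given dextran sulfate sodium (DSS) for 48 h, untreated Nfkb2-/- mice (KO) and Nfkb2-/- mice given DSS for 48 h. DSS is a polysaccharide that injures the colonic epithelium, and Nfkb2 encodes p100, the precursor of the NF-kB subunit p52. The labels restrict the deletion to no cell type, give no DSS dose, and do not say how many mice made up a sample. The series describes the samples as biological replicates.

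The preparations were not sorted. Cells had been shaken off colon pieces in EDTA, and flow cytometry typically found about 90% of them to be EpCAM-positive and negative for CD45.2, the leukocyte surface protein encoded by Ptprc. The remaining cells can include leukocytes. In bulk RNA of this kind, fewer cells of a type and less RNA per cell cannot be told apart.

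Myeloid cells comprise monocytes, macrophages, dendritic cells and granulocytes. In the colon, resident macrophages lie beneath the epithelium and depend on signalling through the receptor encoded by Csf1r. Neutrophils and monocytes enter the tissue when the epithelial barrier is injured, and neutrophils carry very large amounts of the S100a8 and S100a9 transcripts. The other members cover the granule enzyme lysozyme (Lyz2), an inflammatory cytokine (Il1b), a leukocyte integrin (Itgam), a co-receptor for bacterial lipopolysaccharide (Cd14), and a pair of adaptors that carry signals from activating receptors (Tyrobp and Fcer1g).

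The 9 transcripts did not form one pattern. Lyz2, Csf1r and Il1b had the same order of group means, from untreated WT through untreated KO and WT under DSS to KO under DSS. Cd14 was far more abundant, rose under DSS in WT and not detectably in KO, and was highest in WT under DSS. S100a8, S100a9, Tyrobp and Fcer1g had between 0 and 12 counts in every library, too few for the test across genes. Itgam varied within groups about as much as between them.

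Promoter sequences are shown for a contrasting set of members, Lyz2, Il1b, S100a8 and S100a9. Lyz2 was called with DSS in both genotypes, and Il1b in KO alone, by a call that was not stable. S100a8 and S100a9 are neighbouring genes that hardly gave a read. Each sequence is the stretch just upstream of the annotated gene start in the RefSeq table for GRCm38.p6, written 5′ to 3′ on the strand of the gene. RefSeq entries matched 6 of the 9 members, and Csf1r, Cd14 and Tyrobp had none. Capitals mark matches on either strand to GAGGAA, the core bound by the myeloid factor PU.1, or to TTNCNNAA, a form of the C/EBP site. No 2 matches overlap. The Lyz2 stretch is chr10:117282322-117282522 on the minus strand, that of Il1b is chr2:129371140-129371389 on the minus strand, that of S100a8 is chr3:90668821-90668977 on the plus strand, and that of S100a9 is chr3:90695722-90695971 on the minus strand.
Lyz2: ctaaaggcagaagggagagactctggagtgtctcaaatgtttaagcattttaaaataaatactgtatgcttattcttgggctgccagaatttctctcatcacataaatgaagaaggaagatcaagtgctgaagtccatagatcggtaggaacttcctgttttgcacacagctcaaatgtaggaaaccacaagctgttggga
Il1b: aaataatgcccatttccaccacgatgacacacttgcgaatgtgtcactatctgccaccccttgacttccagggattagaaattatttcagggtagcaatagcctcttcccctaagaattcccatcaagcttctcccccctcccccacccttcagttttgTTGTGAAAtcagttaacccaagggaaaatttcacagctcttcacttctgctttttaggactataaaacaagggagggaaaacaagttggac
S100a8: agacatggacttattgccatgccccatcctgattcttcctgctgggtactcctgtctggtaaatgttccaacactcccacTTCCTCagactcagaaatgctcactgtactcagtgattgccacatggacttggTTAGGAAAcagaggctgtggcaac
S100a9: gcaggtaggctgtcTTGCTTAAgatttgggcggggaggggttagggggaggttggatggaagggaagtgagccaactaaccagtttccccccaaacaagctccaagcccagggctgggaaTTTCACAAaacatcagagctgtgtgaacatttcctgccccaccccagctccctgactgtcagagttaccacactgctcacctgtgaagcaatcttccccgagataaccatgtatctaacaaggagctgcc

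The Il1b stretch held 1 match to TTNCNNAA and none to GAGGAA, S100a8 held 1 of each, S100a9 held 2 to TTNCNNAA, and Lyz2 held neither. Among 32851 RefSeq promoter windows of 250 bases, 23.3% held GAGGAA and 36.8% held TTNCNNAA. In windows of 201 bases, the length shown for Lyz2, the shares were 18.8% and 32.4%, and in windows of 157 bases, the length shown for S100a8, they were 15.3% and 27.1%. The 10-letter NF-kB motif that was also searched had no match in these 4 stretches, against 0.356% of all windows of 250 bases. Matches this common are a description of the letters and not of binding, and a missing match says only that the letters are not in the window.

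Libraries held 5595909 to 8117740 counts, so that the detection floor, set at 3 counts, was 0.37 to 0.536 CPM, a unit that divides each count by the depth of its library. Nfkb2 itself had 211 to 346 counts in the 6 WT libraries and 87 to 143 in the 6 KO libraries, with no overlap (36.9 ± 6.52 CPM in untreated WT and 14.4 ± 2.9 in untreated KO, mean ± SD, n = 3). Epcam, the epithelial marker used for the purity estimate, had 13012 to 23708 counts in every library. Ptprc had 45 to 112 counts in WT libraries and 180 to 297 in KO libraries. Library numbers run in 1 block for WT and in another for KO, so library number and genotype cannot be told apart. Genes were tested across all 12 samples with edgeR's quasi-likelihood test, and a gene was called when its Benjamini-Hochberg adjusted p over the 12522 genes tested was under 0.05.

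Of the members, 5 of 9 passed the filter on low counts (Lyz2, Csf1r, Il1b, Itgam and Cd14). The 4 that did not are also the 4 shortest, with 522 to 874 exonic bases, against 1316 to 5774 for the 5 tested. Among all protein-coding genes in the tables, 10.2% of those under 1000 exonic bases were tested and 57.6% of the longer ones. Per kilobase of exon and averaged over all 12 samples, Cd14 stood at 71.9 CPM, Lyz2 at 7.65, Il1b at 2.3 and Csf1r at 0.796. On the same per-kilobase scale the other 5 members lay between 0.204 (S100a9) and 0.646 (Itgam). Cd14 thus supplied 66.9% to 93.1% of all member counts in a library.

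**Figure D1:**
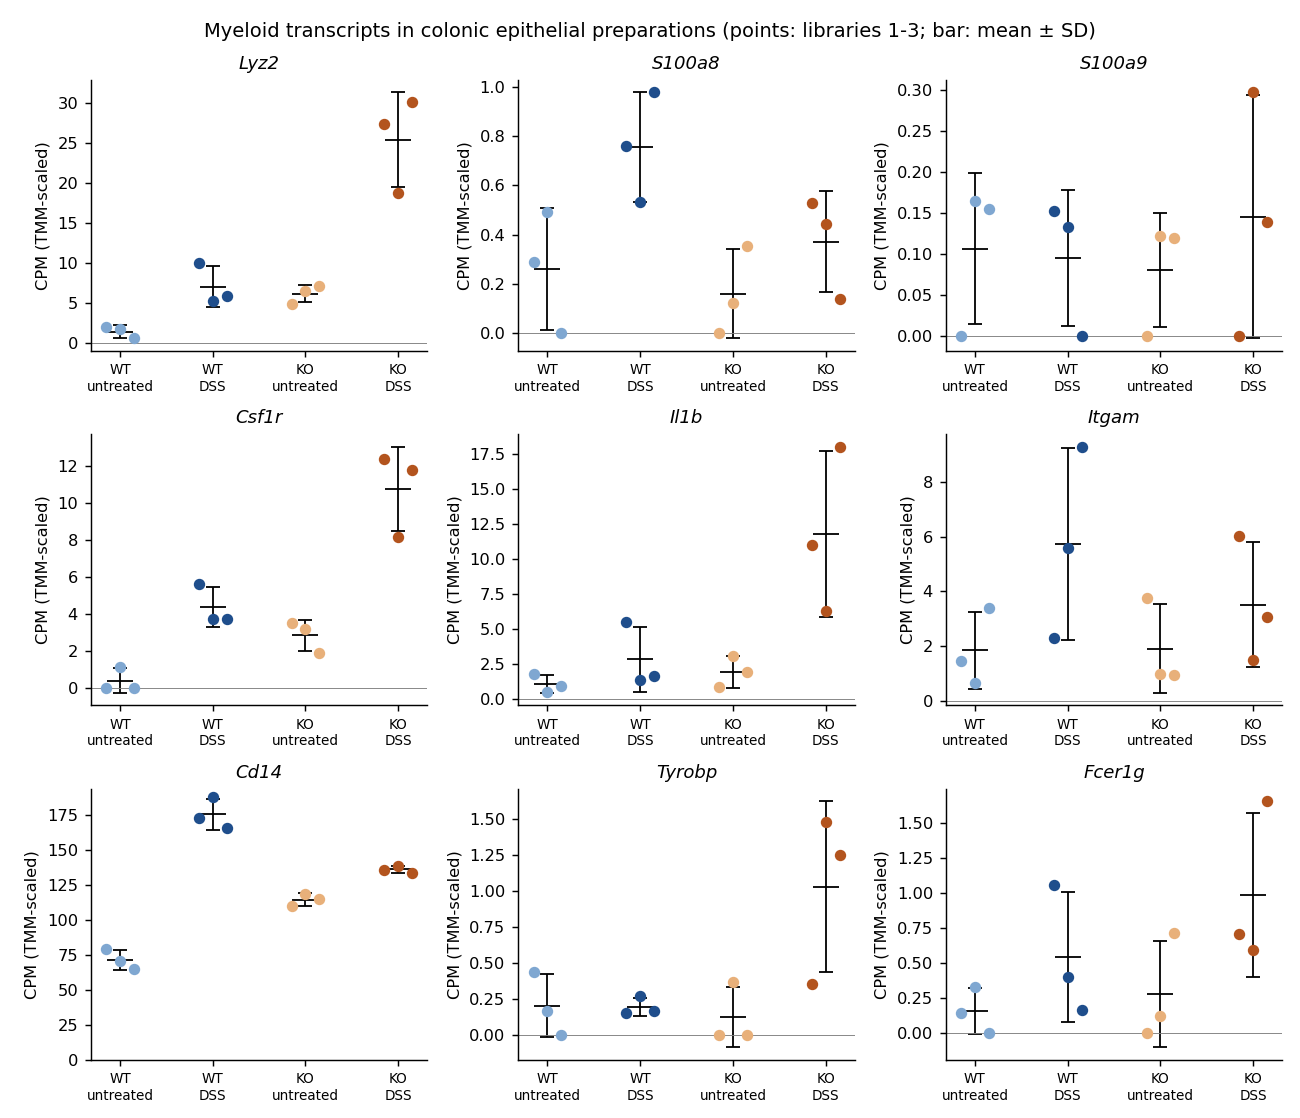
Level of each of the 9 transcripts in each library, in TMM-scaled CPM on a linear axis of its own per panel, by group; points are libraries 1 to 3 and the bar is the mean with its SD. Lyz2 and Csf1r are highest in the 3 libraries of KO under DSS, Cd14 is highest in WT under DSS (166 to 188 CPM), and the panels of S100a8, S100a9, Tyrobp and Fcer1g all end below 2 CPM.

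Lyz2 encodes lysozyme M, a bactericidal enzyme of macrophages and neutrophils, and lies on chromosome 10 at 117277331 to 117282321, minus strand (ENSMUSG00000069516.7, GRCm38, GENCODE M21). Its counts were 14, 11 and 4 in the untreated WT libraries and 66, 40 and 36 in WT under DSS. In KO they were 37, 54 and 60 untreated and 155, 127 and 218 under DSS. Scaled for library size, the group means were 1.49 ± 0.762, 6.23 ± 1.12, 7.08 ± 2.57 and 25.5 ± 5.93 CPM (SD, n = 3 each) for untreated WT, untreated KO, WT under DSS and KO under DSS. Untreated KO overlapped WT under DSS, and every other neighbouring pair of groups in this order was separate. DSS raised Lyz2 in WT by a log2 fold change of 2.23 ± 0.41 (SE; a 4.70-fold rise; edgeR adjusted p = 0.00343) and in KO by 2.03 ± 0.35 (4.07-fold; edgeR adjusted p = 0.00421). The DSS changes differed by -0.21 ± 0.51 (approximate 95% interval -1.21 to 0.80, edgeR adjusted p = 0.961). A difference between genotypes in the response was therefore not detected, and the interval spans more than 1 log2 unit below 0.

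KO also exceeded WT in Lyz2 in both conditions, by 2.05 ± 0.41 untreated (edgeR adjusted p = 0.0116) and by 1.85 ± 0.35 under DSS (edgeR adjusted p = 0.00869). These genotype calls rest on single libraries. Without the third untreated KO library the untreated difference was 1.95 (edgeR adjusted p = 0.0504), and with those 2 groups alone in the fit it was 2.07 (edgeR adjusted p = 0.0861). The difference under DSS was 1.68 (edgeR adjusted p = 0.0528) without the second WT library under DSS and 1.73 (edgeR adjusted p = 0.0518) without the third. The DSS calls in both genotypes held whichever library was left out. Lyz2 shares 15.4% of its 50-base words with the neighbouring gene Lyz1, the lysozyme of Paneth cells, so some reads could be split between them. Lyz1 had 0 to 30 counts, with its highest count in the third untreated WT library, where Lyz2 had its lowest.

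Csf1r encodes the receptor for the growth factors CSF1 and IL-34, which macrophages need to survive (ENSMUSG00000024621.14, chromosome 18, 61100598 to 61132149, plus strand). Its counts were 0, 7 and 0 in untreated WT and 37, 28 and 23 in WT under DSS. In KO they were 26, 26 and 16 untreated and 70, 55 and 85 under DSS. In CPM no neighbouring groups overlapped, with means of 0.383 ± 0.663, 2.86 ± 0.845, 4.37 ± 1.08 and 10.8 ± 2.28 (SD, n = 3 each) for untreated WT, untreated KO, WT under DSS and KO under DSS. The rise under DSS in WT was 3.51 ± 0.77 on the log2 scale (edgeR adjusted p = 0.0125). With 2 of the 3 untreated libraries at 0, its size depends on the second one: without it the fitted value was 7.94, which is no bound. The call was lost without the first WT library under DSS (3.29; edgeR adjusted p = 0.0507) and with the 2 WT groups alone in the fit (3.50; edgeR adjusted p = 0.0806).

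The other Csf1r contrasts did not pass. They were 1.91 ± 0.59 for DSS in KO (edgeR adjusted p = 0.0953), 2.90 ± 0.79 for KO against WT untreated (edgeR adjusted p = 0.0579) and 1.30 ± 0.57 for KO against WT under DSS (edgeR adjusted p = 0.309). DESeq2, run as an alternative, called the first (DESeq2 adjusted p = 0.0029) and the second (DESeq2 adjusted p = 0.00186). The DSS change was lower in KO than in WT by -1.60 ± 0.98 on the log2 scale (approximate 95% interval -3.52 to 0.31, edgeR adjusted p = 0.639). This difference passed without the second untreated WT library (-6.03, edgeR adjusted p = 0.0293). The gene overlaps Hmgxb3, with which it shares 14.3% of its 50-base words, and the library method keeps no strand.

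Il1b encodes interleukin-1 beta, a cytokine that is made as a precursor and released after cleavage by caspase-1 (ENSMUSG00000027398.12, chromosome 2, 129364570 to 129371139, minus strand, overlapping the antisense gene Il1bos). Counts were 12, 3 and 6 in untreated WT and 36, 10 and 10 in WT under DSS. In KO they were 6, 25 and 16 untreated and 62, 42 and 130 under DSS. KO under DSS (11.7 ± 5.93 CPM, SD, n = 3) lay above every other library, while the other 3 groups overlapped one another. The rise under DSS in KO was 2.59 ± 0.63 on the log2 scale (6.04-fold; edgeR adjusted p = 0.0327).

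The Il1b call in KO was not stable. Deviations of same-numbered untreated and DSS samples of KO from their group means were weakly correlated (0.204, 0.106 and 0.127). A fit that treats this number as a block gave a rise of 2.44 (edgeR adjusted p = 0.0761). The rise also missed the threshold without any 1 of the 3 untreated KO libraries (2.23, 3.08 and 2.58 without the first, the second and the third, with edgeR adjusted p = 0.129, 0.0542 and 0.119). The same held without the first (2.64, edgeR adjusted p = 0.0724) or the third (2.14, edgeR adjusted p = 0.151) KO library under DSS. In WT the DSS change was 1.38 ± 0.70 (edgeR adjusted p = 0.341), and 0.46 without the first WT library under DSS. KO exceeded WT by 0.84 ± 0.71 untreated (edgeR adjusted p = 0.66) and by 2.06 ± 0.62 under DSS (edgeR adjusted p = 0.0965). DESeq2 called the difference under DSS (DESeq2 adjusted p = 0.0296). The interaction was 1.22 ± 0.95 (approximate 95% interval -0.64 to 3.08, edgeR adjusted p = 0.762).

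Itgam encodes CD11b, the alpha chain of the integrin by which monocytes and neutrophils adhere and take up complement-coated particles (ENSMUSG00000030786.17, chromosome 7, 128062640 to 128118491, plus strand). Its counts were 10, 4 and 22 in untreated WT, 15, 42 and 57 in WT under DSS, 28, 8 and 8 in untreated KO, and 34, 10 and 22 in KO under DSS. The group ranges overlapped in every comparison. The changes ran from -0.74 to 1.62 on the log2 scale over the 5 contrasts, with edgeR adjusted p from 0.273 to 0.992. This gene is also uncertain for a further reason: 66.3% of its 50-base words are shared with the overlapping gene model Gm49368, which has no row in the tables.

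Cd14 encodes the co-receptor that passes lipopolysaccharide to the Toll-like receptor TLR4 (ENSMUSG00000051439.6, chromosome 18, 36725067 to 36726798, minus strand). Its counts were 542, 429 and 422 in untreated WT, 1141, 1411 and 1020 in WT under DSS, 817, 979 and 967 in untreated KO, and 769, 937 and 964 in KO under DSS. In CPM the 4 groups did not overlap at any step, at 71.5 ± 6.97, 115 ± 4.75, 136 ± 2.68 and 176 ± 11.1 (SD, n = 3 each) for untreated WT, untreated KO, KO under DSS and WT under DSS. DSS raised Cd14 in WT by 1.30 ± 0.11 on the log2 scale (2.46-fold; edgeR adjusted p = 2.49e-06). In KO the DSS change was 0.25 ± 0.10 (1.19-fold; edgeR adjusted p = 0.255).

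The DSS change of Cd14 was smaller in KO than in WT by a log2 difference of -1.05 ± 0.15 (approximate 95% interval -1.34 to -0.76, edgeR adjusted p = 0.00119). Untreated KO libraries stood above untreated WT ones by 0.68 ± 0.11 (1.60-fold; edgeR adjusted p = 0.00216). These 3 calls held whichever library was left out. Under DSS the KO was lower than WT by -0.37 ± 0.10, which missed the threshold (edgeR adjusted p = 0.0766). It passed with DESeq2 (DESeq2 adjusted p = 0.0182), with the 2 DSS groups alone (edgeR adjusted p = 0.0485) and without the first or the third untreated WT library (edgeR adjusted p = 0.0487 and 0.0399).

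**Figure D2:**
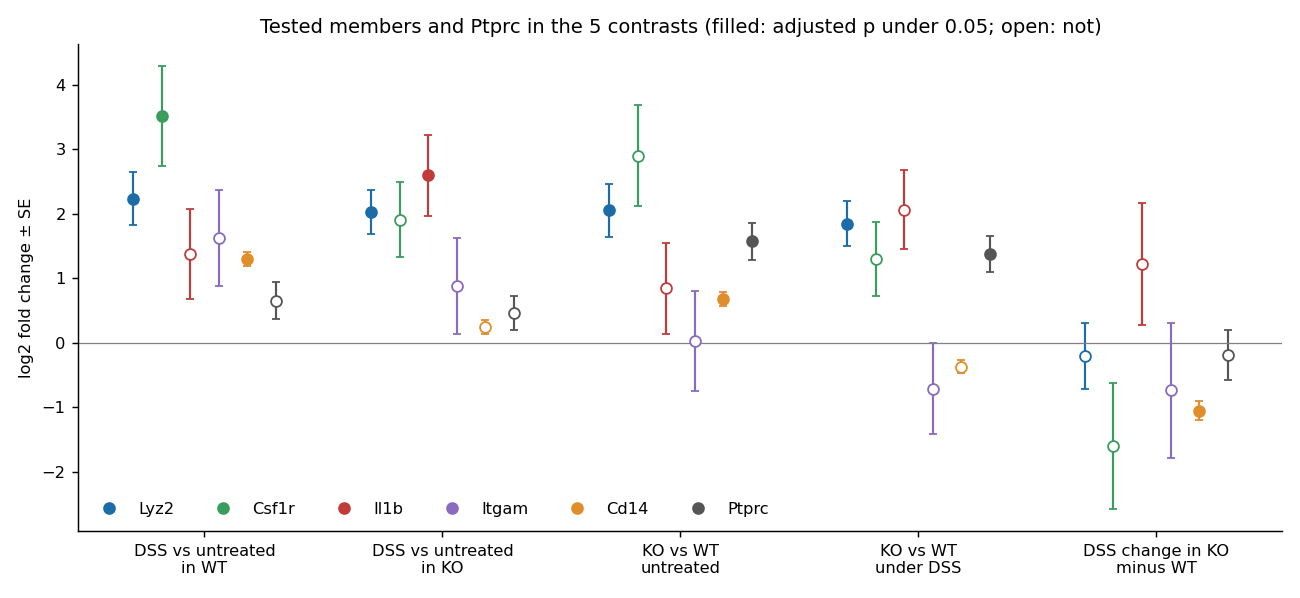
Log2 fold change ± SE of the 5 tested members and of Ptprc in the 5 contrasts; filled points passed the adjusted p threshold and open points did not. Lyz2 passed in both DSS and both genotype contrasts, and Cd14 is the 1 member with a called interaction (-1.05).

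Set against all genes tested, the members' counts were as follows. In WT, DSS raised 3 members (Lyz2, Csf1r and Cd14) and lowered none, where 6.3% of all tested genes were called (2.8% higher and 3.5% lower). In KO, DSS raised 2 (Lyz2 and Il1b), where 3.92% were called (1.88% higher and 2.04% lower). Untreated KO exceeded untreated WT for 2 members (Lyz2 and Cd14), where 3.48% were called (1.72% higher and 1.76% lower). Under DSS, KO exceeded WT for 1 (Lyz2), where 3.11% were called (1.77% higher and 1.34% lower). The interaction called 1 member lower (Cd14), where 1.7% were called (1.17% higher and 0.527% lower). The median log2 change of the 5 tested members was 1.62, 1.91, 0.84, 1.30 and -0.74 in these contrasts, against medians of all tested genes within 0.02 of 0. The members had been picked as leukocyte markers with earlier results of these data known, and these counts are a description.

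S100a8 and S100a9 encode the calcium-binding proteins that pair as calprotectin, a major cytosolic product of neutrophils. They are neighbours on chromosome 3, at 90668978 to 90670035 (plus strand, ENSMUSG00000056054.9) and 90692632 to 90695721 (minus strand, ENSMUSG00000056071.11), downstream of the promoter stretches shown above. S100a8 had 2, 3 and 0 counts in untreated WT, 5, 4 and 6 in WT under DSS, 0, 1 and 3 in untreated KO, and 3, 3 and 1 in KO under DSS. S100a9 had 0 to 2 counts per library and 9 in all 12 libraries together. The 3 WT libraries under DSS lay above both the untreated WT and the KO libraries under DSS for S100a8, each with an exact two-sided permutation p of 0.1, the smallest that 3 against 3 samples can give. Levels this near the floor gave no difference that the design could call.

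Tyrobp (DAP12) and Fcer1g (the Fc receptor gamma chain) are small membrane adaptors whose ITAM motifs pass signals from activating receptors to the kinase Syk. Tyrobp is on chromosome 7 at 30413760 to 30417585 (plus strand, ENSMUSG00000030579.9) and Fcer1g on chromosome 1 at 171229572 to 171234365 (minus strand, ENSMUSG00000058715.10). Tyrobp had 3, 1 and 0 counts in untreated WT, 1, 2 and 1 in WT under DSS, 0, 3 and 0 in untreated KO, and 2, 10 and 9 in KO under DSS. Fcer1g had 1, 2 and 0, then 7, 3 and 1, then 0, 1 and 6, and then 4, 4 and 12 counts in the same order of groups. The summed counts in KO under DSS were 21 for Tyrobp and 20 for Fcer1g, against 3 to 11 in the other groups. In CPM, Tyrobp separated KO from WT under DSS (exact two-sided permutation p = 0.1, the smallest possible). In counts these groups met at 2, below the floor of 3 counts, so the separation rests on the scaling for library size. Fcer1g separated no pair of groups compared.

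The level of Ptprc gives a measure of leukocyte RNA in each library. KO libraries exceeded WT libraries in Ptprc, by 1.57 ± 0.28 untreated (edgeR adjusted p = 0.00607) and 1.38 ± 0.28 under DSS (edgeR adjusted p = 0.0134) on the log2 scale. Its DSS changes were 0.65 ± 0.29 in WT (edgeR adjusted p = 0.255) and 0.46 ± 0.27 in KO (edgeR adjusted p = 0.451). The call under DSS was lost without the first KO library under DSS (1.197; edgeR adjusted p = 0.061) and without the first (1.32; edgeR adjusted p = 0.0786), the second (1.39; edgeR adjusted p = 0.0536) or the third (1.42; edgeR adjusted p = 0.0511) WT library under DSS. Ptprc thus moved with genotype, and member counts were also set against Ptprc within each library.

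Lyz2 gave 0.0889 to 0.196 counts per Ptprc count in untreated WT, 0.357 to 0.742 in WT under DSS, 0.125 to 0.333 in untreated KO and 0.581 to 0.79 in KO under DSS. Relative to Ptprc, the log2 rise of Lyz2 with DSS was 1.56 (exact permutation within genotype, p = 0.005, the smallest possible; 0.0133 after Benjamini-Hochberg adjustment over 8 such tests), and that of Csf1r was 2.63 (exact permutation p = 0.005, adjusted 0.0133). Il1b gave 1.34 (exact permutation p = 0.045, adjusted 0.09). For the genotype, the log2 differences relative to Ptprc were 0.56 for Lyz2 (exact permutation p = 0.1, adjusted 0.16), 1.15 for Csf1r (p = 0.305 by the exact permutation test, adjusted 0.407) and 0.04 for Il1b (p = 0.96, exact permutation). With Coro1a, another leukocyte gene, as the denominator, the log2 change with DSS was 0.79 for Lyz2 (unadjusted exact permutation p = 0.015), 1.86 for Csf1r (0.025) and 0.57 for Il1b (0.375). The genotype differences were then -0.33 for Lyz2 (unadjusted exact permutation p = 0.205), 0.26 for Csf1r (0.755) and -0.85 for Il1b (0.2). Relative to Ptprc, therefore, Lyz2 and Csf1r rose with DSS past the adjusted threshold, and Il1b did not. The unadjusted p of Il1b relative to Ptprc also missed 0.05 in 10 of 12 tests that each left out 1 library (0.94 to 1.62 on the log2 scale). The genotype difference of Lyz2 relative to Ptprc was 0.73 (unadjusted exact permutation p = 0.035) without the first WT library under DSS and 0.79 (0.03) without the first untreated KO library. These ratios were chosen after the values had been seen.

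Cd14 stood in another relation to Ptprc. It gave 6.69 to 9.38 counts per Ptprc count in untreated WT, 10.7 to 12.8 in WT under DSS, 2.75 to 5.44 in untreated KO and 2.88 to 4.81 in KO under DSS. Relative to Ptprc it was lower in KO, by a log2 difference of -1.28 (exact permutation within treatment, p = 0.005, adjusted 0.0133) and of -2.17 relative to Coro1a. The mean ratio went from 7.91 to 12.1 with DSS in WT, where the ranges were separate, and from 4.52 to 3.73 in KO, where they overlapped. Averaged over both genotypes, the log2 change with DSS was 0.19 relative to Ptprc (exact permutation p = 0.435, adjusted 0.497) and -0.58 relative to Coro1a (unadjusted exact permutation p = 0.045). Per kilobase of exon, Cd14 averaged 71.9 CPM and Ptprc 1.23, and Cd14 was not ordered across groups as Ptprc was. Which cells of the preparation gave the Cd14 reads was not tested.

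**Figure D3:**
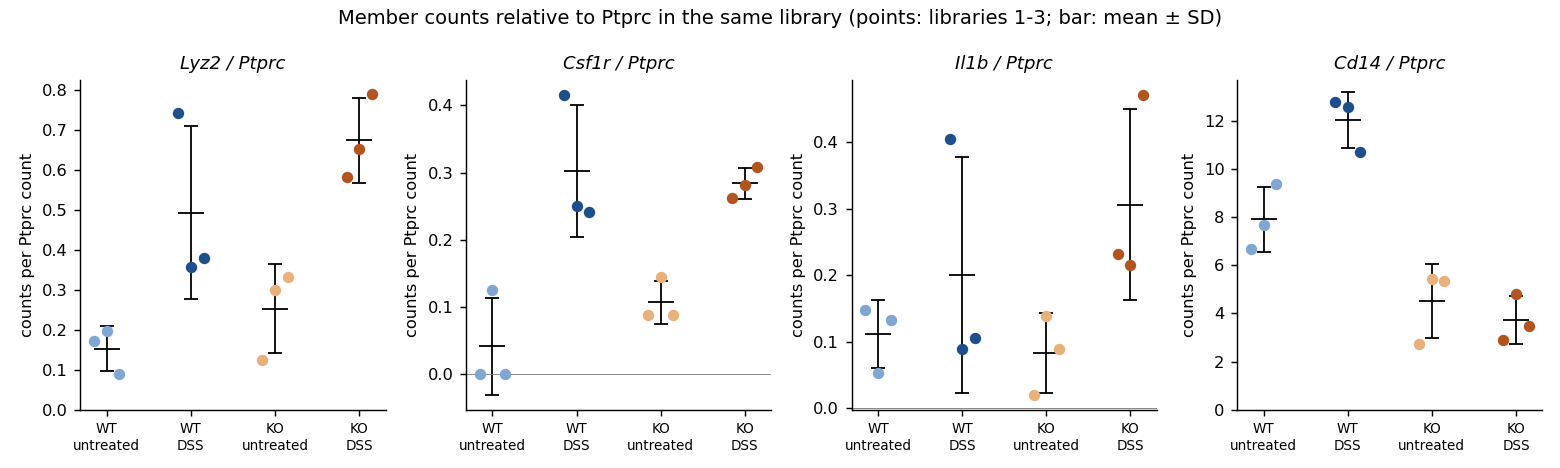
Counts of 4 members divided by the Ptprc count of the same library, by group, on linear axes; points are libraries 1 to 3 and the bar is the mean with its SD. Lyz2 and Csf1r lie higher under DSS in both genotypes, and Cd14 lies at 2.75 to 5.44 in the 6 KO libraries and at 6.69 to 12.8 in the 6 WT libraries.

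Defining markers of the cell types that could carry these transcripts differed widely in reads. The macrophage genes Adgre1 (F4/80) and Cd68 had 0 to 45 and 1 to 26 counts, and Adgre1 had none in the 3 untreated WT libraries. The complement gene C1qa, named after its values were seen, had 3, 4 and 0 counts in untreated WT, 11, 9 and 18 in WT under DSS, 8, 15 and 25 in untreated KO, and 25, 49 and 40 in KO under DSS. It passed in no contrast, and its lowest and highest group means (0.364 and 5.74 CPM) were in the same groups as for Lyz2. Of 16 monocyte and macrophage genes tested, 4 rose and 1 fell with DSS in WT, 1 rose with DSS in KO, and 3 were higher in untreated KO than in untreated WT (median log2 change 1.58, 1.18 and 1.33). None was called between genotypes under DSS by edgeR or in the interaction (medians 0.87 and -0.59).

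Within that list Cybb, the membrane subunit of the phagocyte oxidase, had 1, 6 and 0 counts in untreated WT and 26, 23 and 28 in WT under DSS. It had 27, 10 and 26 in untreated KO and 80, 78 and 78 in KO under DSS, and so had the group order of Lyz2. Its DSS change was 3.34 ± 0.71 in WT on the log2 scale (edgeR adjusted p = 0.01), a call that held whichever library was left out but not with the 2 WT groups alone in the fit. The calls of Cybb in KO (2.20; edgeR adjusted p = 0.0341, and 0.066 with the replicate block) and between untreated genotypes (2.80; edgeR adjusted p = 0.0469) were lost in 7 and 10 of 12 fits that each left out 1 library. Cd74, the invariant chain of MHC class II, had 7399 to 18694 counts and was 0.68 ± 0.12 higher in untreated KO (edgeR adjusted p = 0.00564). The protease gene Ctss, named after its values were seen, had 2517 to 4354 counts. Cd74, with a mean of 1400 to 2250 CPM per group, made up most of the summed level of the list, which was 1720 to 2830 CPM over the 12 libraries.

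Few neutrophil genes passed the filter or were called. Of 16 listed, 5 were tested and 1, Ltf, was called in any contrast, rising with DSS in WT by 2.68 ± 0.52 (lactoferrin; edgeR adjusted p = 0.00543). Elane, Mpo and Camp were named after their values were seen. Elane and Mpo had 0 counts in every library, Camp 0 to 2 and Cxcr2 0 to 8. Ly6g had 88 to 552 counts and no called change. Its lowest group mean was in KO under DSS (23.8 ± 7.21 CPM, SD, n = 3), where Lyz2 and Il1b were highest. Csf3r, named after its values were seen, had its highest group mean there (3.46 ± 1.1 CPM) and no called change. Its DSS change in KO was 2.25 ± 0.70 on the log2 scale (edgeR adjusted p = 0.0971). The median log2 change of the 5 tested genes was 0.61 with DSS in WT and 1.71 in KO. Between genotypes it was 0.10 untreated and 0.84 under DSS. Like S100a8 and S100a9, the granule genes Elane, Mpo and Camp were thus at or near the floor, while Ly6g and Ltf were not. The share of neutrophils in the preparations was not tested.

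Genes of leukocytes in general, and of lymphocytes, were counted in the same way. Of 11 pan-leukocyte genes tested, KO exceeded WT for 6 when untreated and for 5 under DSS, and 2 and 1 rose with DSS in WT and KO. Of 12 fits that each left out 1 library, 11 lost Cd53 with DSS in WT, 4 lost Lcp1 with DSS in KO and 9 lost Arhgdib between genotypes under DSS. Coro1a, an actin regulator of leukocytes, was 2.76 ± 0.38 higher in untreated KO (edgeR adjusted p = 0.00071), and the tetraspanin gene Cd53 was 3.18 ± 0.54 higher (edgeR adjusted p = 0.00388). Of 14 T and NK cell genes tested, KO exceeded WT for 5 when untreated and for 1 under DSS, and 2 and 0 rose with DSS in WT and KO. Several of these calls were as fragile, since 11 of the 12 fits lost Itgae in untreated KO, 9 lost Lck under DSS and 8 lost Cd3e with DSS in WT. The summed level of the pan-leukocyte list was 42.6 to 64.1 CPM in untreated WT, 75.0 to 89.4 in WT under DSS, 127 to 155 in untreated KO and 199 to 245 in KO under DSS. That of T and NK cell genes was 15.1 to 35.4, 38.5 to 53.1, 72.4 to 92.9 and 84.2 to 124 CPM in the same order. The part of these cells in the members' changes was not tested.

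Few genes of the remaining cell types passed. Of 2 dendritic cell genes tested, Irf8 rose with DSS in both genotypes (0.59 ± 0.10 in WT, edgeR adjusted p = 0.00205, and 0.91 ± 0.10 in KO, edgeR adjusted p = 0.000156). Irf8 was also lower in untreated KO (-0.39 ± 0.10, edgeR adjusted p = 0.0458), a call lost in 11 of 12 fits that each left out 1 library. None of 5 genes of mast cells, basophils and eosinophils was called in any contrast. Of 2 B and plasma cell genes tested, Xbp1, which epithelial secretory cells also use, rose with DSS in WT (0.45; edgeR adjusted p = 0.00473), and Cd79a had 0 to 7 counts. Of 3 stromal and endothelial genes tested, Vim was higher in KO in both conditions, and Col1a1 had 0 to 5 counts. Of 12 epithelial genes, Krt20 and Car1, both of mature surface colonocytes, fell with DSS in each genotype, Car1 was lower in untreated KO and Vil1 lower in KO under DSS. Some of these calls are fragile: of 12 fits that each left out 1 library, 5 and 3 lost Vim (untreated and under DSS), 3 lost Car1 with DSS in KO, and 7 lost Vil1.

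**Figure D4:**
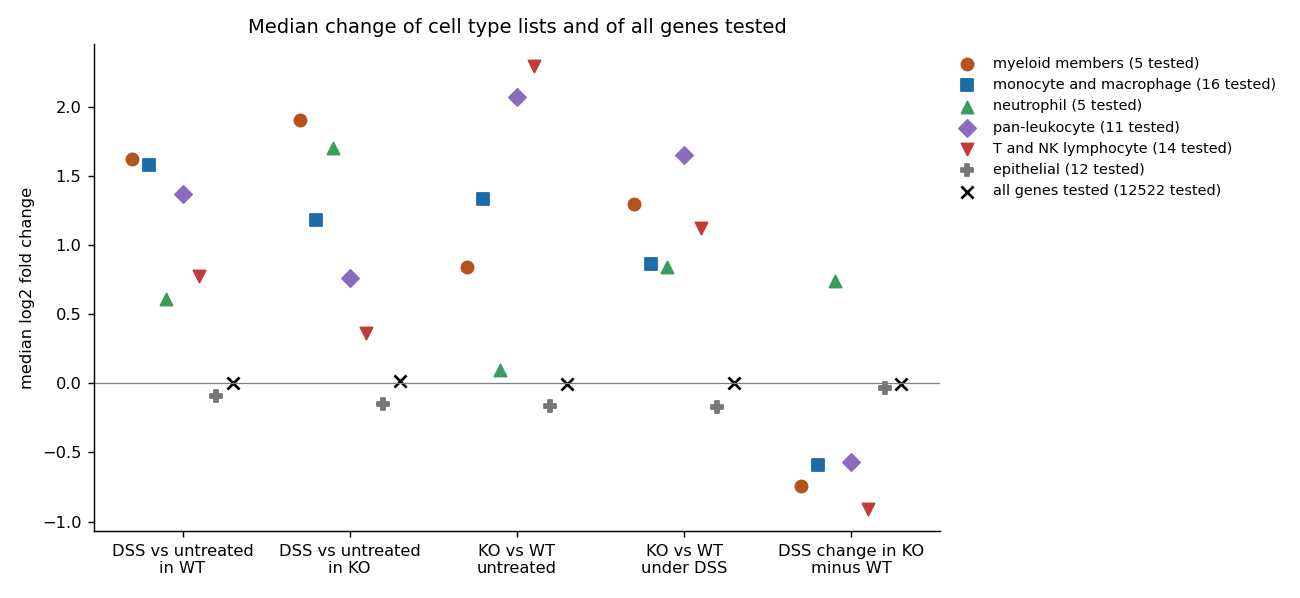
Median log2 fold change, in each of the 5 contrasts, of the tested members, of 5 cell type lists and of all 12522 genes tested. Medians of the leukocyte lists shown lie above 0 in the first 4 contrasts. The epithelial list lies between -0.17 and -0.04 in all 5. The T and NK and pan-leukocyte lists are highest for untreated KO against WT (2.30 and 2.07). Of the leukocyte lists not shown, that of dendritic cells (2 genes tested) was above 0 in the same 4 contrasts. Of these 2 genes, Irf8 was lower in untreated KO (-0.39). Mast cells, basophils and eosinophils had -0.02 for DSS in KO and -0.63 for KO against WT under DSS. B and plasma cells had -0.42 and -0.76 for KO against WT untreated and under DSS. Both lists were above 0 in the rest of the 4.

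Ligands, receptors and partners of the members were also counted. In the lipopolysaccharide and S100 receptor pathway, 12 genes were tested; 1 rose with DSS in WT and 2 in KO, and 1 was lower in KO under DSS and in the interaction. Lbp, whose product delivers lipopolysaccharide to CD14, had 49, 29 and 13 counts in untreated WT, 475, 579 and 351 in WT under DSS, 62, 77 and 70 in untreated KO, and 130, 132 and 227 in KO under DSS. The groups did not overlap. Lbp rose with DSS in WT by 3.88 ± 0.33 on the log2 scale (edgeR adjusted p = 3.51e-06), and its DSS change was smaller in KO by -2.38 ± 0.44 (edgeR adjusted p = 0.00967), the same sign as for Cd14. Tlr4 itself had 306 to 477 counts and its partner Ly96 had 12 to 30, with no call in any contrast.

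On the interleukin-1 axis 12 genes were tested; 3 rose with DSS in WT and 2 in KO, none was called between untreated genotypes, and 1 was lower in KO under DSS and in the interaction. Of the 2 in KO, Casp4 was lost with the replicate block (edgeR adjusted p = 0.0666) and in 9 of 12 fits that left out 1 library. Of the 3 in WT, Il18 was lost in 10 of those fits. Il1rn, the receptor antagonist that blocks interleukin-1, rose with DSS in WT (0.68 ± 0.12; edgeR adjusted p = 0.00235) and KO (0.69 ± 0.12; edgeR adjusted p = 0.00419), with an interaction of 0.01 ± 0.17. Per kilobase of exon it averaged 41.5 CPM, against 2.3 for Il1b. Il18bp, the decoy that binds interleukin-18, rose with DSS in WT (1.02 ± 0.16; edgeR adjusted p = 0.000992) and was lower in KO than in WT under DSS (-1.01 ± 0.16; edgeR adjusted p = 0.00284).

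Among leukocyte integrins and their ligands 9 genes were tested; 2 rose with DSS in WT, none in KO, 3 were higher in untreated KO, none was called under DSS between genotypes, and 1 was lower in the interaction. Itgb2, the beta chain that pairs with the Itgam product, was 3.09 ± 0.56 higher in untreated KO (edgeR adjusted p = 0.00587), a call lost with those 2 groups alone in the fit, while Itgam differed by 0.03. Icam1, the ligand of that integrin on epithelium and endothelium, was higher in untreated KO by 2.66 ± 0.34 (edgeR adjusted p = 0.000348) and rose with DSS in WT by 2.95 ± 0.34 (edgeR adjusted p = 5.78e-05).

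The other 3 lists had few calls. Median log2 changes with DSS in WT and KO were 0.60 and 0.73 for the CSF1 receptor and myeloid growth factor pathway. They were -0.01 and 0.73 for the ITAM receptor partners and kinases, and -0.01 and -0.16 for the other S100 genes. In the CSF1 receptor and myeloid growth factor pathway, 1 of 10 genes tested, Irf8, was called (higher with DSS in both genotypes and lower in untreated KO, the last lost in 11 of 12 fits that left out 1 library); the CSF1R ligands Csf1 and Il34 had 0 to 43 and 39 to 183 counts and no call. Of 8 ITAM receptor partners and kinases tested, 1 (Pirb) rose with DSS in WT, and none was called elsewhere. Per kilobase of exon Syk averaged 5.91 CPM, against 0.579 and 0.562 for the adaptors Tyrobp and Fcer1g. Of 8 other S100 genes tested, 1 (S100g) fell with DSS in KO, a call lost in 2 of those 12 fits. On the same per-kilobase scale S100a6 averaged 40.5 CPM, against 0.558 for S100a8 and 0.204 for S100a9.

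Likeness to the mean log2 CPM of the 5 tested members over the 12 samples was compared for 11235 other genes with mean log2 CPM of at least 1. The 8 genes most alike were Gas6 (Pearson r = 0.977), Ppif, Tapbp, Cxcl16, Nupr1, Tap2, Il1rn and Serpinb9 (r = 0.95). For Cd14 alone, a reference taken after its values were seen, the highest were Atp2c2 (r = 0.972), Cd177, Nfkbia and Slc46a1 (both 0.957), with Lbp at 0.943. For the mean of Lyz2, Csf1r and Il1b, also taken afterwards, Arhgap8 (r = 0.974) and Gas6 (0.967) led, and no listed leukocyte gene was among the first 8. The cut on level had kept several listed genes out, among them C1qa (mean log2 CPM 0.985), Cd68 (0.870) and Adgre1 (0.102). Their absence therefore says nothing about likeness. All 12 points share 4 groups, and the highest of so many coefficients are high by selection, so no p is given.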

How the data were processed

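The deposited values are whole-number read counts per gene, 1 table per sample, and the titles gave the 4 groups of 3. Per the submitters' processing notes, STAR 2.5.2b and featureCounts 1.5.0 were used with GRCm38/mm10. The annotation and strand setting are not given in the sources used here. Per the labels, libraries came from 2 ng of RNA by SMART-seq2 and Nextera XT, which keep neither strand nor molecular identifiers, so floors cover counting error only.

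Of 46517 Ensembl IDs, 46005 matched GENCODE M21 without their version (27555 with it). R 4.3.3 and edgeR 4.0.16 were used: filterByExpr (12522 genes, 99.8% of counts), TMM scaling, 1 coefficient per group over 12 samples, two-sided quasi-likelihood tests and Benjamini-Hochberg adjustment over all genes tested. CPM are TMM-scaled. The code was tested on simulated data. The alternatives were DESeq2 1.42.0, other scaling, other filters, fewer groups, each library left out and a replicate block. The members, the 15 other gene lists and the tests were chosen with earlier results of these data known. Ratios to Ptprc (0.5 added to both counts) were added after seeing the values.

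Named genes are the members, Nfkb2, set marker genes, up to 2 called genes per list and contrast with the largest change (mean log2 CPM of at least 1), the 8 most alike, and others said to be chosen afterwards, or given as counts beside a member's ligand or partner.

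Same-numbered replicates in the titles were checked for pairing by correlating deviations from group means over genes. For DSS in KO every pair exceeded 0.1 (0.204, 0.106 and 0.127), so blocked values stand beside calls that change. Chi-square comparisons found no 2 replicates within sampling noise.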

Additional observations from a re-analysis of the deposited data

Results flagged for a closer look

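The DSS change differed between genotypes by the test of the interaction for 1 member and 4 related genes. Cd14 had a DSS change smaller in KO by -1.05 ± 0.15 on the log2 scale (edgeR adjusted p = 0.00119); it rose with DSS in WT, and its untreated level was higher in KO than in WT. Lbp showed a difference of -2.38 ± 0.44 (edgeR adjusted p = 0.00967). Icam1 showed -2.02 ± 0.44 (edgeR adjusted p = 0.0273), and Il18bp showed -0.99 ± 0.23 (edgeR adjusted p = 0.038). These last 2 calls are fragile, since each was lost in 8 of 12 fits that left out 1 library and with the replicate block (edgeR adjusted p = 0.0507 for Icam1 and 0.0535 for Il18bp). Over those 8 fits the edgeR adjusted p was 0.0504 to 0.0891 for Icam1 and 0.0623 to 0.111 for Il18bp. Car1 had the opposite sign, 1.69 ± 0.19 (edgeR adjusted p = 0.000199), with a smaller fall under DSS in KO and a lower untreated level there. The calls of Cd14, Lbp and Car1 held in all 12 such fits.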

How the results depend on the processing

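DESeq2 called 800 genes for DSS in KO (491 by edgeR), 790 for KO against WT untreated (436), 661 under DSS (390) and 360 in the interaction (213). Without the low-count filter these were 776, 703, 642 and 356. With only the 2 groups compared in the fit, 467 genes were called for DSS in WT (789) and 195 between untreated genotypes (436).

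Members called under DSS between genotypes numbered 3 with DESeq2, 2 without the filter and 2 with 2 groups alone, against 1. Between untreated genotypes 1 was called with 2 groups alone, against 2. Requiring at least 10 counts in every sample removes Lyz2, Csf1r, Il1b and Itgam by construction, leaving 1, 0, 1 and 0 members called in the 4 contrasts of 2 groups. The replicate block left 1 member for DSS in KO; elsewhere it changed no member's call, and it gave 695, 345, 290 and 186 called genes for DSS in WT, the 2 genotype contrasts and the interaction, where at least 1 same-numbered pair had a correlation under 0.1 (-0.175 to 0.128).

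Leaving out each library gave 483 to 958 genes for DSS in WT (members 2 to 3), 235 to 710 in KO (1 to 3), 212 to 725 between untreated genotypes (1 to 3), 160 to 566 under DSS (0 to 2) and 152 to 350 in the interaction (1 to 2). Signs turned within these fits for Itgam between untreated genotypes (-0.92 to 0.81) and in the interaction (-1.52 to 0.21), for the Lyz2 interaction (-0.51 to 0.16), and for Il1b relative to Ptprc between genotypes (-0.23 to 0.44). None of these was called. That last value was -0.0010 with 1 added to the counts. With Coro1a as the denominator, signs turned for Lyz2 (-0.33) and Il1b (-0.85) between genotypes and for Cd14 with DSS (-0.58). The cause of these shifts was not tested. The low counts of members other than Cd14 (32 to 478 per library together) limit what could be detected.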
